A study of Rattus norvegicus with 16 samples.

Results

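The potassium channel genes described here are all rat genes whose symbol starts with Kcn on the Affymetrix array, taken from probe sets that the platform annotation ties to a single gene. There are 73 such genes, measured by 108 probe sets, among 10411 named genes in all. Of these, 51 had 1 probe set and 22 had several. A gene with several is represented by the one of highest mean. The genes fall into 18 subfamilies by the letters of their names and into 6 classes by function.

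RNA came from fields CA1 and CA3 of rat organotypic hippocampal slice cultures, which are thin brain slices kept alive in culture with their neurons, glia and local wiring. Each field was sampled at T0, 30 min, 3 h and 12 h with 2 biological replicates, giving 8 groups of 2 arrays and 16 arrays. The title names oxidative stress, and the comparisons ask how each field responds over time and where the fields differ. The agent and its dose, whether T0 precedes it, and the strain, age and genotype of the rats are not stated in the labels, and no untreated culture at a later time was analysed here. The labels do not say whether the replicates came from separate animals or slices, so p-values measure the spread between these arrays. Since RNA was taken from whole fields, fewer cells of a type and less RNA per cell cannot be told apart.

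Potassium channels let potassium leave the cell down its gradient, which sets the resting potential and ends the action potential. Voltage-gated (Kv) channels are built from 4 pore subunits. Silent subunits (Kcng, Kcns, Kcnv) form no channel alone and join Kcnb subunits, while auxiliary subunits such as Kcnip, Kcnab and Kcne alter gating and transport to the membrane. Inward rectifiers (Kcnj) and two-pore leak channels (Kcnk) work near the resting potential, and the calcium- and sodium-activated channels (Kcnma, Kcnmb, Kcnn, Kcnt) open after ion entry. In hippocampal pyramidal cells, A-type current from Kcnd pores with Kcnip and Dpp subunits limits the excitability of dendrites.

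Values are log2 expression values, on which a difference of 1 is a 2-fold change. Values after ± are standard errors from limma, and a gene was called where its Benjamini-Hochberg adjusted p over the 15866 probe sets tested was under 0.05. Array medians lay between 5.81 and 5.94, and the 2 arrays of a group correlated at 0.911 to 0.969 over probe sets. The arrays differed in ways the groups do not give. The mean signal of the control probe sets for the bacterial RNAs Dap, Lys, Phe, Thr and Trp, used as spiked controls on these arrays, ran from 4.41 to 6.86 and was lowest in the replicate 2 arrays of 30 min and 12 h. The GAPDH 3′ minus 5′ signal, a sign of RNA degradation or incomplete copying, ran from 1.29 to 3.93 and was highest, at 3.93, in both replicate 2 arrays of 3 h. Within every group it was higher in replicate 2 than in replicate 1.

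Most Kcn genes gave a low signal. The mean over the 16 arrays was above the median of all probe set means (5.92) for 14 of 73 genes (19.2%), against 50% of all probe sets. Kcnip3, which encodes a calcium-binding Kv4 partner also known as DREAM or calsenilin, had a mean of 8.46. The others above the median were Kcnmb4, Kcnh3, Kcnab2, Kcna1, Kcnn1, Kcnj5, Kcnk6, Kcng2, Kcnma1, Kcnj3, Kcne3, Kcnd2 and Kcnc4. Probe sets differ in how strongly they bind, so the order of these means is no order of transcript abundance. By class, 4 of 23 Kv pore genes, 1 of 7 silent, 3 of 10 auxiliary, 2 of 15 inward rectifier, 1 of 11 two-pore and 3 of 7 calcium- or sodium-activated genes were above the median. Several genes with known roles in the hippocampus lay low on this array, among them the astrocyte channel Kcnj10 (mean 3.69), the GIRK subunit Kcnj9 (3.75), the leak channel Kcnk1 (4.04) and the Kv4 partner Kcnip4 (4.12).

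**Figure D1:**
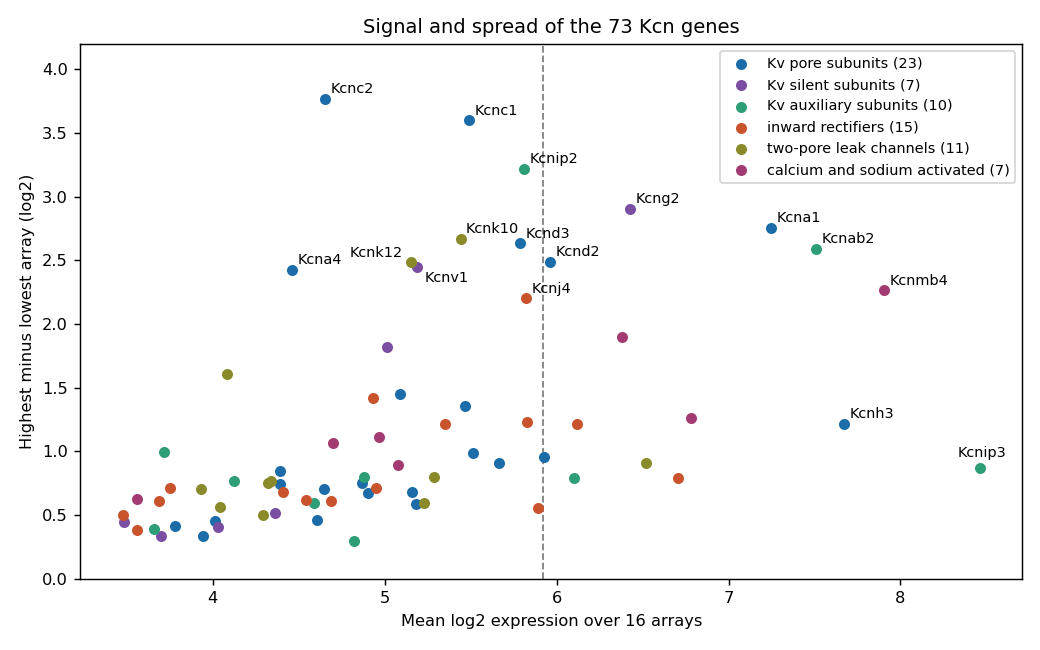
Mean log2 expression over the 16 arrays (x axis) against the highest minus the lowest array (y axis) for each of the 73 Kcn genes, coloured by class; the dashed line marks the median of all probe set means, 5.92. Most points lie left of the line and under 1 on the y axis, and 14 genes span more than 2 log2 units.

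Most Kcn genes varied little between arrays. The highest minus the lowest array had a median of 0.80 over the 73 genes, against 1.11 over all probe sets, and 46 genes spanned less than 1. The 2 medians are not matched for signal, since 59 of the 73 genes were not above the median signal. Genes above the median signal spanned 0.79 (Kcnj5) to 2.91 (Kcng2). A span over 2 was found for 14 of 73 genes (19.2%, against 15.1% of all probe sets). These were Kcnmb4, Kcnab2, Kcna1, Kcng2, Kcnd2, Kcnj4, Kcnip2, Kcnd3, Kcnc1, Kcnk10, Kcnv1, Kcnk12, Kcnc2 and Kcna4. They come from every class, and 8 of the 14 are pore or auxiliary subunits of the Kv1, Kv3 and Kv4 channels.

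No Kcn gene passed against T0 in the fit of all arrays or in a fit of paired arrays. At 30 min, 0 of 73 genes passed in limma against 0.107% of all probe sets, at 3 h 0 of 73 against 0.183%, and at 12 h 0 of 73 against 2.07%. At an unadjusted p under 0.05 there were 5 Kcn genes at 30 min (7.46% of all probe sets), 3 at 3 h (9.09%) and 11 at 12 h (18.2%). With the 2 fields averaged within a replicate number before the fit, called the pair fit here, 0 passed at each time. There, 2, 0 and 4 had an unadjusted p under 0.05, against 3.96%, 4.99% and 10.5% of all probe sets. In CA1 alone 0 of 73 passed at 30 min (0.0126% of all probe sets), at 3 h (0.0063%) and at 12 h (0.208%), with 2, 1 and 5 at an unadjusted p under 0.05 (4.96%, 4.56% and 11.3% of all probe sets). In CA3 alone 0 passed in limma at 30 min (0%), 3 h (0%) and 12 h (0.0063%), with 2, 3 and 2 at an unadjusted p under 0.05 (3.04%, 3.93% and 6.93%). The values below therefore describe genes whose differences from T0 did not pass.

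At 12 h the differences were uneven over the classes. Over the 73 genes the median difference from T0 was -0.00, with 35 above 0, against a median of -0.03 and 44.8% above 0 over all named genes. In each class the highest gene lay far above the class median. The 23 Kv pore genes ran from -0.18 to 1.54 with 13 above 0, the 10 auxiliary genes from -0.20 to 1.60 with 6 above 0, and the 7 silent genes from -0.11 to 0.88 with 5 above 0. The 15 inward rectifiers ran from -0.22 to 0.80 with a median of -0.04 and 4 above 0. The 11 two-pore channels ran from -0.28 to 0.96 with a median of -0.07 and 3 above 0. The 7 calcium- or sodium-activated genes ran from -0.57 to 1.12 with 4 above 0. All 4 arrays of 12 h lay above all 4 of T0 for 6 of 73 genes (8.22%, against 7.55% of all probe sets), which were Kcnab2, Kcnk12, Kcnc2, Kcna4, Kcnip1 and Kcnmb1. They lay below for 1 gene, Kcnn4 (1.37%, against 8%).

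**Figure D2:**
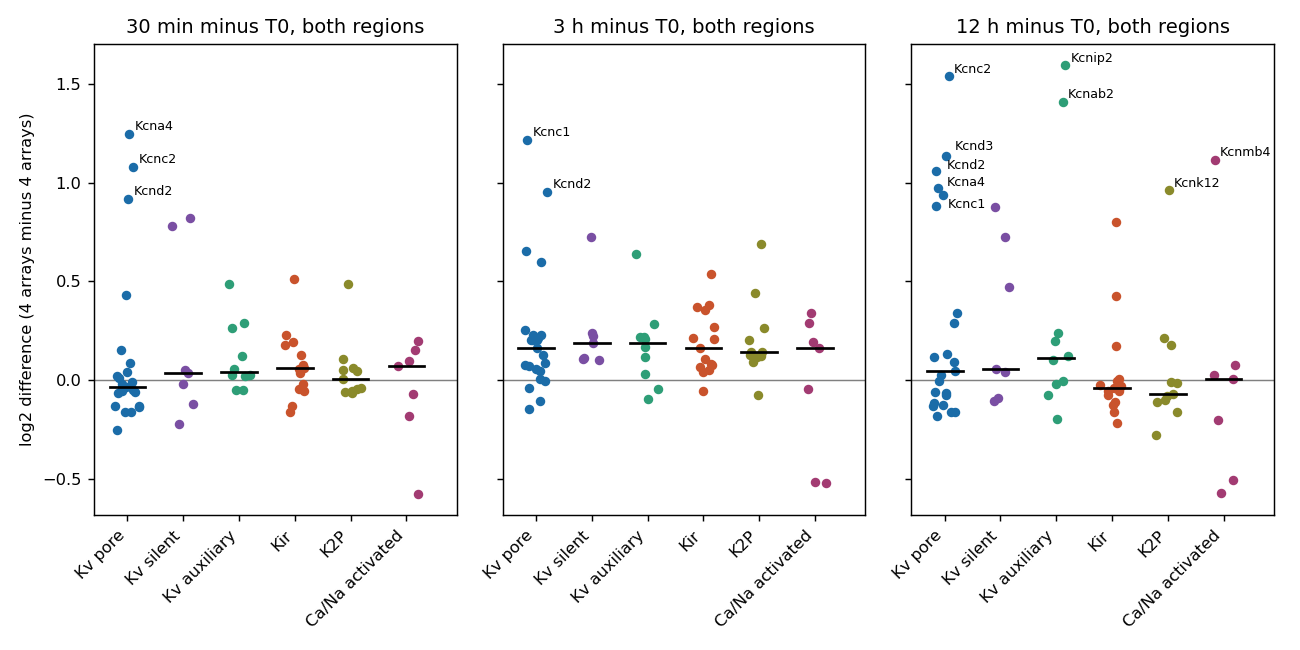
Difference from T0, averaged over CA1 and CA3, for each of the 73 Kcn genes at 30 min, 3 h and 12 h (panels), on the log2 scale (y axis) and grouped by class (x axis); points are genes, black bars class medians, and genes beyond 0.9 are named. Class medians stay near 0 at 30 min and 12 h and all lie above 0 at 3 h, while single Kv genes reach 1.25 at 30 min and 1.60 at 12 h.

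By subfamily, the genes lay on the same side of T0 in both fields at 12 h for some groups. All 3 Kcnc genes, all 3 Kcnd genes, all 4 Kcnip genes, both Kcnmb genes and both Kcnv genes lay above 0 in CA1 and again in CA3. Over all named genes, 45.7% lay above 0 in CA1 and 45.8% in CA3, and the share above 0 in both was not counted. Some of the genes lay near 0, as low as 0.08 in Kcnmb and 0.06 in Kcnv averaged over the fields. The medians in CA1 and CA3 were 0.74 and 1.13 for Kcnc, the fast Kv3 pores, and 0.94 and 0.29 for Kcnd, the Kv4 pores. They were 0.26 and 0.18 for Kcnip, the Kv4 partners. The 15 Kcnj genes had medians of -0.04 and -0.01, the 11 Kcnk genes -0.01 and -0.10, and the 8 Kcnh genes -0.07 and -0.19. At 30 min the Kcnd median was 0.84 in CA1 and 0.03 in CA3, and at 3 h 0.65 and 0.50. The Kcnj genes were above 0 in 7 of 15 in CA1 and 12 of 15 in CA3 at 30 min, and in 12 and 15 at 3 h. Over all named genes, 44.1% in CA1 and 51.2% in CA3 were above 0 at 30 min, and 51.5% and 51.9% at 3 h. These shares are not matched for signal.

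Subunits of A-type channels were among the genes with the largest differences at 12 h. None of them passed in the fit of all arrays or in the pair fit. Kcnip2 encodes KChIP2, a cytoplasmic partner that raises the surface level of Kv4 pores. Its 4 values at T0 were 5.25 and 4.97 in CA1 and 6.52 and 4.93 in CA3. At 12 h they were 6.23 and 6.45 in CA1 and 8.02 and 7.35 in CA3, while at 30 min and 3 h they lay between 4.80 and 6.55. The groups overlap through 1 array, CA3 T0 replicate 1. The difference was 1.60 ± 0.44 (limma adjusted p = 0.0926, 4 arrays against 4). Without that CA3 T0 array the difference was 1.99 with an adjusted p of 0.0486, over a range of 0.0486 to 0.995 in the alternatives tried. That array also had the highest mean level of the excitatory neuron markers at T0, 7.46 against 5.45 to 5.95 in the others. The other 2 probe sets of Kcnip2, with lower means of 3.92 and 4.27, differed by -0.03 and 0.02 at 12 h.

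Of the pores that Kcnip2 joins, Kcnd2 encodes Kv4.2, a main A-type pore of pyramidal cell dendrites. In CA1 it measured 4.70 and 4.68 at T0, 5.67 and 6.62 at 30 min, 5.03 and 7.17 at 3 h, and 6.68 and 6.45 at 12 h. In CA3 it measured 5.95 and 5.58 at T0 and between 5.75 and 6.62 afterwards. All 6 later CA1 arrays were above both CA1 T0 arrays, whereas the CA3 values overlap. The share of all probe sets with such a gap in CA1 alone was not counted. The 3 h value of 7.17 is on a replicate 2 array with a GAPDH 3′ minus 5′ signal of 3.93, and the part of RNA quality was not tested. Over both fields the difference was 0.92 ± 0.41 at 30 min, 0.96 ± 0.41 at 3 h and 1.06 ± 0.41 at 12 h (limma adjusted p = 0.659, 0.519 and 0.198). At 12 h it was 1.87 ± 0.58 in CA1 and 0.25 ± 0.58 in CA3, and the test of the difference between the fields did not pass (limma adjusted p = 1.00). Without the 3 h replicate 2 pair, the pair fit gave 0.24 at 3 h, and without the 3 h replicate 1 pair 1.67. The other probe set of Kcnd2 gave 0.47, 0.93 and 0.88 at the 3 times.

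Kcnd3, which encodes the related pore Kv4.3, measured 4.59 and 5.80 in CA1 and 4.77 and 5.82 in CA3 at T0. At 12 h it measured 5.75 and 6.51 in CA1 and 6.04 and 7.22 in CA3. Replicate 1 was lower than replicate 2 in all 8 groups, and the groups overlap. The difference was 1.14 ± 0.45 (limma adjusted p = 0.213), while its other probe set, with a mean of 3.93, gave 0.06. With the replicate number as a block, the limma adjusted p was 0.00945, though numbers were not taken to pair times. Kcnd1, which encodes Kv4.1, differed by -0.16 at 30 min, -0.01 at 3 h and 0.34 at 12 h. Of the remaining Kv4 partners, Kcnip3 differed by 0.24, Kcnip1 by 0.20 and Kcnip4 by 0.12. The other probe sets of Kcnip3 and Kcnip1 gave -0.07 and -0.08.

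Kcna4 encodes Kv1.4, the A-type pore of axons, and Kcnab2 a Kv1 beta subunit that helps carry Kv1 channels to the axon. Kcna4 measured 3.84 and 3.36 in CA1 and 4.04 and 3.73 in CA3 at T0, and 4.16 and 5.56 in CA1 and 4.46 and 5.79 in CA3 at 30 min. At 12 h it measured 4.62 and 5.12 in CA1 and 4.07 and 5.07 in CA3. No array of 30 min or 12 h was as low as the highest T0 array. All 4 arrays of 30 min above all 4 of T0 occurred for 2 of 73 genes, Kcna4 and Kcnj4 (2.74%, against 1.89% of all probe sets). The differences of Kcna4 were 1.25 ± 0.42 at 30 min and 0.98 ± 0.42 at 12 h (limma adjusted p = 0.443 and 0.246). The 2 arrays of 30 min replicate 2, which gave its highest values, had a low control signal, 4.41 and 4.60, and its part in the difference was not tested.

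Kcnab2 measured 6.98 and 6.46 in CA1 and 7.62 and 6.44 in CA3 at T0, and 8.06 and 9.02 in CA1 and 7.99 and 8.08 in CA3 at 12 h. The groups do not overlap, and at 30 min and 3 h the 2 arrays of replicate 2 stood above those of replicate 1 in both fields. The difference at 12 h was 1.41 ± 0.52 (limma adjusted p = 0.18). The other Kcnab2 probe set, with a mean of 5.33, gave -0.05, so the difference rests on 1 probe set. Kcnab1 and Kcnab3, the other beta subunits, differed by 0.10 and -0.02.

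**Figure D3:**
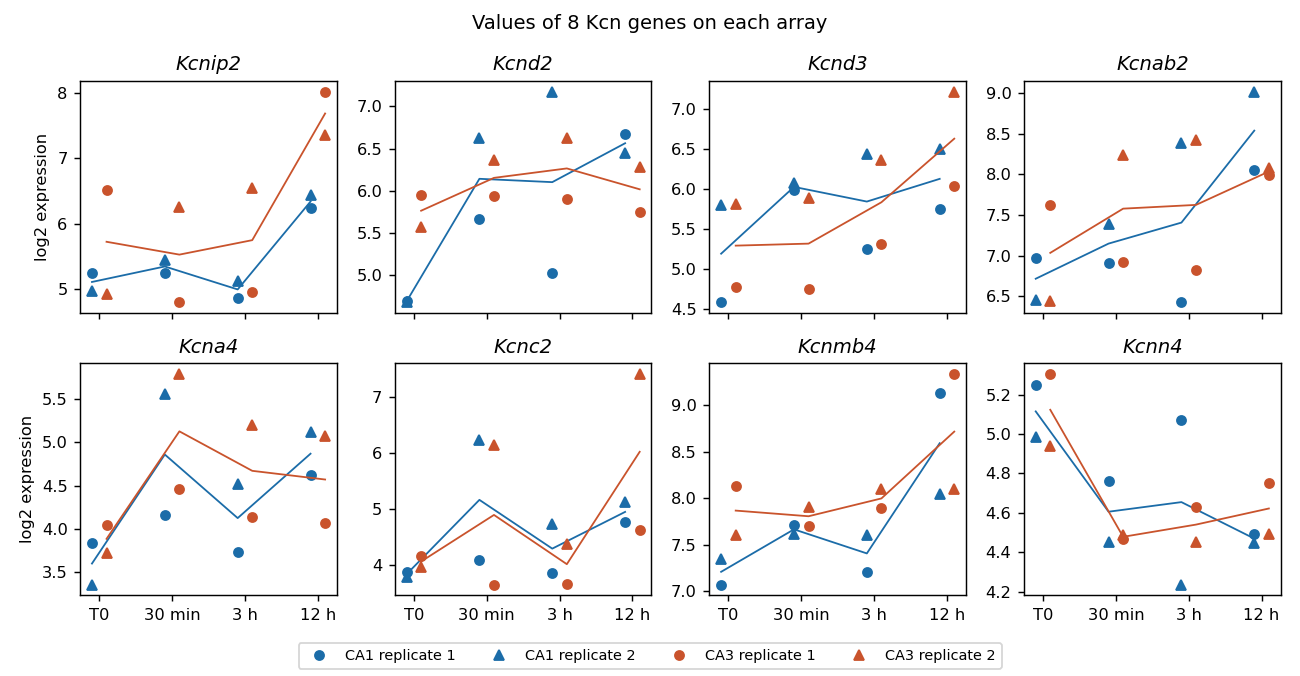
Log2 expression of 8 Kcn genes (panels, each with its own y axis) on the 16 arrays at T0, 30 min, 3 h and 12 h (x axis); circles are replicate 1, triangles replicate 2, blue is CA1 and orange CA3, and lines join the mean of the 2 arrays of a group. Kcnab2, Kcna4 and Kcnc2 have every 12 h array above every T0 array, Kcnn4 has every 12 h array below, and Kcnip2, Kcnd2, Kcnd3 and Kcnmb4 overlap.

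Of the Kv3 pores, known for fast spiking, Kcnc2 and Kcnc1 had high values on some arrays, while Kcnc4 ran from 5.51 to 6.47. Kcnc2 encodes Kv3.2, known from interneurons. It lay between 3.79 and 4.16 at T0, but at 30 min it measured 4.09 and 6.24 in CA1 and 3.65 and 6.14 in CA3. Both high values of 30 min are from the replicate 2 arrays with the low control signal, whose part was not tested. At 12 h Kcnc2 measured 4.77 and 5.13 in CA1 and 4.63 and 7.42 in CA3, a difference of 1.54 ± 0.70 (limma adjusted p = 0.274). Its 5 other probe sets gave -0.08 to 0.09. Kcnc1, which encodes Kv3.1, measured 4.28 and 7.88 in CA1 and 4.68 and 7.84 in CA3 at 3 h, against 4.64 to 5.19 at T0. Both high values come from the replicate 2 arrays with the GAPDH signal of 3.93, and the replicate 1 arrays lie within or below the T0 range. The part of RNA quality in the Kcnc1 values was not tested. Kcna1, which encodes the axonal pore Kv1.1, differed at 12 h by 0.23 ± 0.69 in CA1 and 1.54 ± 0.69 in CA3, and neither passed in limma (adjusted p = 0.979 and 0.717). Kcna2, the partner of Kcna1 in axonal channels, differed by 0.15, 0.25 and -0.00 at the 3 times.

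Averaged over the fields, the 8 ether-a-go-go (Kcnh) pores ran from -0.18 to 0.13 at 12 h with 3 above 0. Kcnh3, which encodes the forebrain pore Kv12.2, measured 7.59 and 7.47 at T0 and 8.02 and 8.02 at 12 h in CA1, and 7.56 and 7.84 at T0 and 7.48 and 7.47 at 12 h in CA3. Its average difference was 0.13 ± 0.17 (limma adjusted p = 0.806), and the test of the difference between the fields gave 0.71 ± 0.34 with an adjusted p of 1.00. Kcnh1 differed by 0.09. The M-current subunit Kcnq3 differed by -0.12 ± 0.16 (adjusted p = 0.807) and Kcnq1 by -0.12. Among the silent subunits Kcns3 lay higher at each time, by 0.82 ± 0.37, 0.73 ± 0.37 and 0.88 ± 0.37 (limma adjusted p = 0.664, 0.586 and 0.233). The Kv2 pore that such subunits join, Kcnb2, differed by -0.06 at 12 h (adjusted p = 0.937). The Kcns3 values at T0 of 4.03 and 4.71 in CA1 and 4.10 and 4.79 in CA3 overlap with later arrays as low as 4.31. Kcnv1 differed by 0.78 ± 0.33 at 30 min and 0.72 ± 0.33 at 12 h (adjusted p = 0.608 and 0.273).

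Among the calcium-activated channels, Kcnmb4 and Kcnn4 lay on opposite sides of T0 at 12 h. Neither passed in the fit of all arrays or in the pair fit. With the replicate number as a block, the limma adjusted p at 12 h was 0.0385 and 0.0382, though numbers were not taken to pair times. Kcnmb4 encodes the neuronal beta subunit of the BK channel. It measured 7.07 and 7.34 in CA1 and 8.13 and 7.60 in CA3 at T0, 7.61 to 7.90 at 30 min and 7.21 to 8.10 at 3 h. At 12 h it measured 9.13 and 8.05 in CA1 and 9.34 and 8.09 in CA3. Replicate 1 of 12 h was the highest in both fields, and the 2 replicate 2 arrays reached just under the highest T0 array. The difference was 1.12 ± 0.29 (limma adjusted p = 0.0819). Kcnma1, the BK pore itself, differed by -0.51 ± 0.36 (adjusted p = 0.534), with -1.0 in CA1 and -0.02 in CA3. Its other probe sets, with lower means of 4.48 and 4.73, gave 0.09 and 0.07 at 12 h.

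Kcnn4 encodes the intermediate-conductance channel KCa3.1, known mainly from immune cells, microglia included. It has 1 probe set, and its mean of 4.70 lies below the median of all probe set means. It measured 5.25 and 4.98 in CA1 and 5.30 and 4.94 in CA3 at T0, and between 4.24 and 5.07 in the 12 later arrays. All later arrays except CA1 3 h replicate 1 were below every T0 array, and at 30 min it was the 1 Kcn gene for which this held for all 4 arrays (1.37%, against 3.66% of all probe sets). The differences were -0.58 ± 0.18 at 30 min, -0.52 ± 0.18 at 3 h and -0.57 ± 0.18 at 12 h (limma adjusted p = 0.412, 0.424 and 0.132). Beside it, 12 of 13 measured microglia markers lay below 0 at 12 h, with 4 passing in the fit of all arrays and 0 in the pair fit. Their mean level per array ran from 7.98 to 8.41 at T0 and from 6.08 to 7.43 at 12 h, and the part of microglia in the Kcnn4 values was not tested. The small-conductance channels Kcnn1 and Kcnn3 differed by 0.02 and 0.01 at 12 h, and the sodium-activated Kcnt1 by -0.20.

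Among the inward rectifiers, Kcnj4 stood apart from its class. It encodes Kir2.3, a rectifier of forebrain neurons. At T0 it measured 5.59 and 5.42 in CA1 and 5.18 and 5.24 in CA3, and at 30 min 5.76 and 5.88 in CA1 and 5.69 and 6.15 in CA3. At 12 h it measured 5.71 and 7.39 in CA1 and 5.55 and 6.0 in CA3. The 30 min arrays do not overlap with T0, and at 12 h only the CA1 replicate 2 array was over 7. The differences were 0.51 ± 0.36 and 0.80 ± 0.36 (limma adjusted p = 0.892 and 0.269), and its other probe set gave 0.02 and 0.01. Of the GIRK subunits, Kcnj3 differed by -0.16, Kcnj5 by -0.06, Kcnj6 by 0.17 and Kcnj9 by -0.06 at 12 h. The other Kcnj5 probe set, with a mean of 4.61 against 6.71, gave -0.69 at 30 min and -0.70 at 12 h. One of the other Kcnj6 probe sets, with a mean of 4.37 against 4.95, gave 1.00. The glial channels Kcnj10 and Kcnj16 differed by -0.08 and -0.22, and the ATP-sensitive pore Kcnj11 by 0.01.

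The two-pore channels were near T0 apart from Kcnk12, Kcnk10 and Kcnk2. Kcnk12, a two-pore family member that gives little current on its own, measured 4.51 to 4.75 at T0 and 5.15 and 6.80 in CA1 and 5.02 and 5.60 in CA3 at 12 h. The groups do not overlap, and the difference was 0.96 ± 0.45 (limma adjusted p = 0.288). Kcnk10, which encodes the mechanically and lipid-gated channel TREK-2, was high in 4 arrays of replicate 1: 6.37, 6.49 and 7.35 in CA1 at T0, 30 min and 3 h, and 6.50 in CA3 at 3 h. Its other 12 arrays lay between 4.68 and 5.37, so its high values are all in replicate 1. Kcnk2, which encodes TREK-1, measured 3.45 and 3.90 at T0 and 4.16 and 5.05 at 12 h in CA1, and 4.30 and 4.26 at T0 and 3.68 and 3.74 at 12 h in CA3. Its difference was 0.93 ± 0.37 in CA1 and -0.57 ± 0.37 in CA3, and the test of the difference between the fields gave an unadjusted p of 0.0154 and an adjusted p of 1.00 in limma. The leak channels Kcnk1, Kcnk3 and Kcnk9 differed by -0.08, -0.10 and -0.01.

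At 3 h most Kcn genes lay a little above T0. The difference was above 0 for 62 of 73 genes with a median of 0.16, against 53.4% and a median of 0.02 over all named genes. Among Kcn genes whose mean was not above the median signal, 49 of 59 were above 0 with a median of 0.14, against 69.4% and a median of 0.08 over all such named genes. Among those above the median signal, 13 of 14 were above 0 with a median of 0.19, against 42.4% and a median of -0.08. The count was 51 without the 2 replicate 2 arrays of 3 h and 52 after cyclic loess, another scaling between arrays. The class medians ran from 0.14 for two-pore channels to 0.19 for the auxiliary and silent Kv subunits. Kcnj6 was the gene with the smallest p besides Kcnn4, at 0.37 ± 0.14 (limma adjusted p = 0.461). All 3 h arrays above all T0 arrays occurred for 1 gene, Kcnh6 (1.37%, against 3.01% of all probe sets), and below for 0 (3.69%).

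The start regions of the genes with large differences at 12 h are shown for those whose 250 bases before the RefSeq start lie outside the annotated gene. They are given 5′ to 3′ on the strand of the gene, with the GC box GGGCGG or its reverse complement in capitals. The regions are chr5:168270761-168271010 (minus strand) for Kcnab2, chr2:195626066-195626315 (plus strand) for Kcnd3 and chr7:54005102-54005351 (minus strand) for Kcnmb4, all in GRCr8.
Kcnab2: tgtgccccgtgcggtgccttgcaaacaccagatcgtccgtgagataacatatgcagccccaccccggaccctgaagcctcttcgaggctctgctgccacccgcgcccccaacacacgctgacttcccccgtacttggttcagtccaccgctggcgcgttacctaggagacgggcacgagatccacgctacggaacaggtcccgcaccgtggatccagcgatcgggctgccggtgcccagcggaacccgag
Kcnd3: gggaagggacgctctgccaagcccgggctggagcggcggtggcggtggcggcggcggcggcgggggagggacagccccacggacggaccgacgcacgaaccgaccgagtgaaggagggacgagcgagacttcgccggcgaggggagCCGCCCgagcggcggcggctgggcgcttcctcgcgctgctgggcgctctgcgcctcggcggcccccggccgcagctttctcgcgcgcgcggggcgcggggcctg
Kcnmb4: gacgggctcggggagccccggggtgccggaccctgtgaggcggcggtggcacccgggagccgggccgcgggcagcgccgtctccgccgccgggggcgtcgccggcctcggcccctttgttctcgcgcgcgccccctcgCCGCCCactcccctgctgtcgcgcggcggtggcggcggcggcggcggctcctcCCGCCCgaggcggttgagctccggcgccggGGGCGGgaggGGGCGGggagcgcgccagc
The GC content was 65.2% for Kcnab2, 79.6% for Kcnd3 and 84.4% for Kcnmb4, and they hold 0, 1 and 4 GC boxes. Of the 50 Kcn genes with a RefSeq promoter sequence, 28 (56%) hold a GC box, against 30.5% of 33469 RefSeq promoters. Their median GC content was 63.4% against 51.2%, and the GC box is itself made of G and C. The CRE TGACGTCA, the element bound by CREB, was found in 0 of 50 against 1.59%, AP-1 (TGANTCA) in 2 (4%) against 6.34%, and the Egr motif GCGNGGGCG in 4 (8%) against 4.29%. TATAAA was found in 2 (4%) against 12.9%, and the E-box CANNTG in 27 (54%) against 65.5%. Both strands were searched, and a match is a description of the letters only.

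Between the fields, 1 Kcn gene passed. In the fit of all arrays 0 of 73 genes passed for CA1 minus CA3 over the 4 times, against 0% of all probe sets, and 4 had an unadjusted p under 0.05 (3.21%). The replicate numbers were taken to pair the fields within a time, which the labels do not state. In the pair fit of the 8 CA1 minus CA3 differences 1 of 73 passed, against 0.208% of all probe sets. There, 9 had an unadjusted p under 0.05 (10.6%). The gene was Kcnv1, which encodes Kv8.1, a silent subunit of the brain. In CA1 it measured 4.44 and 4.21 at T0, 4.24 and 5.40 at 30 min, 4.55 and 4.91 at 3 h and 5.12 and 4.96 at 12 h. In CA3 it measured 5.83 and 4.54, 5.84 and 6.66, 5.43 and 5.02, and 6.08 and 5.75. CA1 was lower than CA3 in 8 of 8 pairs, by 0.11 in 3 h replicate 2 at the least and 1.59 in 30 min replicate 1 at the most.

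The difference of Kcnv1 was -0.91 ± 0.14 in the pair fit (limma adjusted p = 0.0478) and -0.91 ± 0.23 with all arrays taken as unpaired (adjusted p = 1.00). With 1 pair left out it ran from -1.04 to -0.78 with an adjusted p from 0.0296 to 0.193, and it passed in 2 of 8 such fits, those without T0 replicate 2 and without 3 h replicate 2. After cyclic loess the pair fit gave an adjusted p of 0.0781, and with a trended and robust prior 0.696. Its mean of 5.19 lies below the median of all probe set means, and it has 1 probe set.

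**Figure D4:**
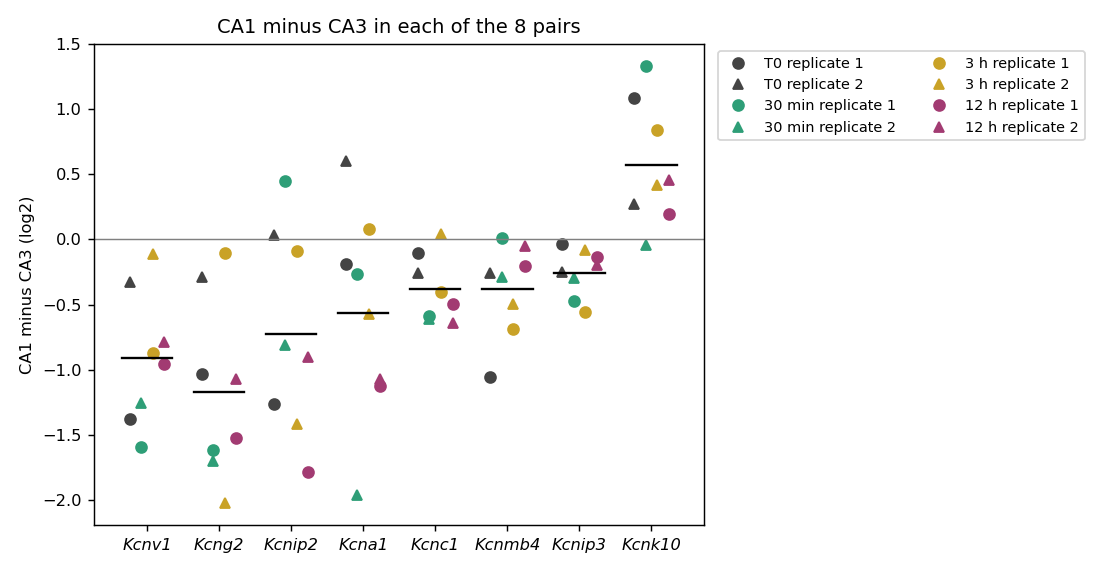
CA1 minus CA3 on the log2 scale (y axis) for 8 Kcn genes (x axis), 1 point for each of the 8 pairs of the same time and replicate number; colour gives the time, circles are replicate 1, triangles replicate 2, and bars the mean of the 8 pairs. All pairs are below 0 for Kcnv1, Kcng2 and Kcnip3, and 7 of 8 are above 0 for Kcnk10.

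Kcng2 and Kcnip3 were the other genes lower in CA1 in 8 of 8 pairs, which 3 of 73 genes were (4.11%, against 1.02% of all probe sets). Higher in 8 of 8 pairs were 0 of 73 (1.26%). Kcng2 encodes Kv6.2, a silent subunit. In CA1 it measured 6.47 and 5.51 at T0, 5.34 and 5.19 at 30 min, 5.87 and 6.07 at 3 h and 6.32 and 5.97 at 12 h. In CA3 it measured 7.50 and 5.80, 6.96 and 6.89, 5.98 and 8.10, and 7.85 and 7.05. The gap was as small as 0.10 in 3 h replicate 1 and as large as 2.03 in 3 h replicate 2. The difference was -1.17 ± 0.19 in the pair fit (limma adjusted p = 0.0608). Left without 3 h replicate 1 or 3 h replicate 2, the adjusted p was 0.0235 or 0.034, over a range of 0.0235 to 1.00 in the alternatives tried. Its other probe sets, with lower means of 5.24 and 3.86, gave -0.38 and 0.14. Kcnip3 was high in all arrays, from 8.0 to 8.87, and differed by -0.25 ± 0.10 (adjusted p = 0.369). Its other probe set, with a mean of 4.90, gave 0.004.

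The remaining region differences did not pass. For CA1 minus CA3 over the 4 times, the values below 0 were those of 15 of 23 Kv pore, 8 of 10 auxiliary, 5 of 7 silent, 10 of 15 inward rectifier, 6 of 11 two-pore and 3 of 7 calcium- or sodium-activated genes. Those with an unadjusted p under 0.05 included Kv genes, with -0.72 ± 0.22 for Kcnip2, -0.56 ± 0.18 for Kcna1, -0.38 ± 0.09 for Kcnc1 and -0.32 ± 0.12 for Kcnc4 in the pair fit (limma adjusted p = 0.244, 0.284, 0.166 and 0.377). The other probe sets of Kcnip2 gave 0.09 and -0.02. Kcnmb4 was at -0.38 ± 0.11 (adjusted p = 0.241) and lower in CA1 in 7 of 8 pairs. The largest difference toward CA1 was that of Kcnk10, 0.57 ± 0.16 (adjusted p = 0.224), higher in CA1 in 7 of 8 pairs. Its largest pair values, 1.33, 1.09 and 0.84, were all of replicate 1, and its other probe set gave 0.08. Kcnj4 and Kcnn3 followed at 0.30 and 0.24, while the other Kcnj4 probe set gave -0.15. Over all 73 genes the median was -0.04 with 26 above 0, against -0.00 and 49.6% over all named genes. By subfamily, 0 of 6 Kcna, 0 of 3 Kcnab and 0 of 3 Kcnc genes were above 0, while 3 of 3 Kcnn and 2 of 2 Kcnq genes were. The count over all 73 was 42 without the pair of 3 h replicate 1 and 12 without that of 3 h replicate 2.

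The labelled fields and the cell makeup were checked with marker lists. All 6 measured CA1 field markers lay above 0 for CA1 minus CA3 averaged over the times (median 0.62). Their mean level was lower in CA1 in 3 of 8 pairs, among them both T0 pairs. At T0 it was 4.85 and 4.78 in CA1 against 5.03 and 5.16 in CA3. At T0 alone, 3 of the 6 markers lay above 0 with a median of -0.04, so this list did not set the fields apart there. At 12 h, 5 of the 6 lay above 0 with a median of 1.89. Of 9 CA2 and CA3 markers 8 lay below 0 averaged over the times, with 1 passing in the pair fit. At T0 alone, 7 of these 9 lay below 0. Beside the region values of the Kcn genes, 8 of 9 measured excitatory neuron markers lay below 0 with a median of -0.47, and their mean level was lower in CA1 in 7 of 8 pairs. The 8 measured oligodendrocyte markers were all below 0 with a median of -0.56, and 3 fell in the pair fit.

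The same lists differed with time. At 12 h the excitatory neuron markers had a median of 1.76 with 8 of 9 above 0 and 1 passing. Their mean level per array ran from 5.45 to 7.46 at T0, 5.93 to 7.75 at 30 min, 5.51 to 7.70 at 3 h and 7.46 to 8.09 at 12 h. The interneuron markers had a median of 0.48 at 12 h (7 of 9 above 0, 1 passing), the astrocyte markers -0.28 (3 of 11 above 0, 0 passing) and the oligodendrocyte markers 0.14 (5 of 8 above 0, 0 passing). All 9 measured markers of dividing cells fell, with a median of -2.14. These calls are those of the fit of all arrays, and 0 markers of any list passed at 12 h in the pair fit. The part of the neuron content of each array in the values of Kcnip2, Kcnd2, Kcnd3, Kcnab2, Kcnc2, Kcna4 and Kcnmb4 was not tested.

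A list of channel partners and ion transporters outside the Kcn symbols was described in the same way. Of 34 listed genes 27 were measured, and 0 passed at 30 min, 3 h or 12 h or between the fields. Their medians were 0.21, 0.16 and 0.17 over time and -0.09 for CA1 minus CA3. Dpp6, which encodes the transmembrane partner of Kv4 channels, differed by 1.41 at 30 min, 1.13 at 3 h and 2.26 ± 0.54 at 12 h (limma adjusted p = 0.549, 0.564 and 0.062). Adam22, which encodes a receptor of the Lgi1 protein at Kv1-rich axons and synapses, differed by 2.04 ± 0.79 at 12 h (adjusted p = 0.199). Slc12a5, the neuronal potassium chloride exporter KCC2, differed by 1.97 ± 0.84 (adjusted p = 0.244). The glial and immature-neuron importer Slc12a2 differed by -0.34, and Hcn2, a pacemaker channel pore, by 0.00 ± 0.15.

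Whether a change differed between CA1 and CA3 was tested for each time, and 0 of 73 genes passed in either fit, against 0% of all probe sets. In the fit of all arrays, 0, 0 and 1 gene had an unadjusted p under 0.05 at 30 min, 3 h and 12 h (0.838%, 0.347% and 0.447% of all probe sets), and the last was Kcnk2. In the pair fit there were 2, 0 and 4 (3.75%, 1.77% and 2.34%), which were Kcna1 and Kcnd2 at 30 min and Kcna1, Kcnd2, Kcnk2 and Kcnma1 at 12 h. At 12 h, CA1 minus CA3 was -1.35 for Kcnip2, -1.30 for Kcng2, -1.10 for Kcna1 and -1.08 for Kcnc2, and 0.89 for Kcnk2 and 0.78 for Kcnj4. Of these, 0 passed in either fit.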

How the data were processed

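The authors deposited log2 values for each probe set on each array, computed by RMA according to the submitters' processing notes, with no version or settings named there. RMA subtracts background, equalises the distribution of probe signals over arrays and summarises probes to probe sets, so differences are relative to the other genes of an array. The labels' protocols describe biotin labelling of total RNA in 2 cycles, which amplify it. The number of arrays limits the precision.

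Of 15923 probe sets, 57 controls were set aside. Group means were fitted to all 16 arrays with limma 3.58.1 in R 4.3.3 (8 residual degrees of freedom, prior 2.55), and p-values were adjusted over 15866 probe sets within each contrast. To see whether replicate numbers pair arrays, residuals of same-numbered arrays were compared. They correlated between fields at 0.57 to 0.67 in the 4 times, and numbers were taken to pair CA1 with CA3 within a time. A difference shared by all arrays of a replicate number, such as that of the GAPDH signal, would also give such correlations. The check therefore cannot establish the pairing, which the labels do not state. Between T0 and later times the correlations ran from -0.24 to 0.31 (3 of 6 under 0.1, all in CA3). Between later times they ran from 0.30 to 0.66 (0 of 6 under 0.1). Since every comparison over time uses T0 and not all of its values were over 0.1, numbers were not taken to pair times. A difference between replicate numbers that the times share, such as that of the GAPDH signal, stays in the residuals of those comparisons. The pair fit uses the 8 differences or means of paired arrays (4 residual degrees of freedom). The fit was tested on simulated data with noise drawn independently for each array. That test does not cover the correlations between arrays found here.

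Named were genes that passed in any contrast, the 10 largest differences each way in the 3 time comparisons and between fields, the highest mean of each subfamily, the 10 highest means, and genes with a known hippocampal role. The members, lists and rules were chosen with earlier results of these data known. Symbols were taken from the platform annotation, and all 108 probe sets matched RefSeq by Entrez identifier with 0 symbols changed. Promoter sequences are RefSeq's (GRCr8), 250 bases before the start. Python 3.11.15 was used for tables. Alternatives were other normalizations, the prior, the signal filter, the replicate block, the mean of a gene's probe sets and leaving out arrays.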

Additional observations from a re-analysis of the deposited data

Results flagged for a closer look

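For each of the 73 Kcn genes, the 8 CA1 minus CA3 differences were searched for 1 pair far from the other 7, by a gap to the nearest pair, as a share of the whole range, above Dixon's critical value. Chance alone gives about 1 such gene in 20, and 5 genes were found. Kcnd3, the Kv4.3 pore, was at 1.24 in 30 min replicate 1, where the nearest other pair was 0.18. Kcnc2, the Kv3.2 pore, was at -2.28 in 12 h replicate 2 against -0.29, from the CA3 array with a value of 7.42. Kcnh2, the HERG pore, was at 0.50 in 3 h replicate 2 against -0.01. Kcnh7, a related pore, was at -0.71 in 3 h replicate 1 against -0.08. Kcnmb1, a BK beta subunit of smooth muscle, was at -0.62 in 3 h replicate 1 against -0.21. Both of these genes have low means, 4.39 for Kcnh7 and 3.56 for Kcnmb1. In each of them the CA3 3 h replicate 1 array gave the highest value of all arrays, 5.01 and 4.05.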

How the results depend on the processing

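Each of 28 values of a gene in a comparison with an unadjusted p under 0.05 was recomputed, 962 values in all. Of these, 951 kept their direction and side of the threshold, 9 newly passed and 2 changed sign. The sign changes were those of Kcnc1 for CA1 minus CA3 (-0.38), at 0.069 without CA1 3 h replicate 1 and 0.013 without CA3 3 h replicate 2. With arrays left out in turn it ran from -0.83 to 0.069. The count of genes passing for CA1 minus CA3 went from 0 to 1 with the replicate block as the pair fit (Kcnv1). With pairs left out of that fit, added after the data were seen, it ran from 0 to 2 and was 1 without 3 h replicate 1 (Kcng2), 1 without T0 replicate 2 (Kcnv1) and 2 without 3 h replicate 2 (Kcng2 and Kcnv1). At 12 h the count was 3 with the replicate number as a block: Kcnd3 (adjusted p = 0.00945), Kcnmb4 (0.0385) and Kcnn4 (0.0382). Over arrays left out in turn it was 0 to 1, and 1 without CA3 T0 replicate 1 (Kcnip2). Residuals of same-numbered T0 and later arrays correlated at 0.21 to 0.31 in CA1 and at -0.24 to 0.02 in CA3. The cause of these changes was not tested. With 2 arrays a group and most Kcn genes at low signal, small differences were not detectable here, and T0 comparisons share the same 4 arrays.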
